A study of Gallus gallus with 24 samples.

Results

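The chicken Z chromosome was described gene by gene in the hypothalamus of 24 broilers, and 608 of its genes were followed. They are the genes that the deposited expression table places on the Z with a mean of at least 1 CPM (counts scaled to the size of the library) over the 24 birds. The table holds 16779 genes, of which 816 (4.86%) are on the Z, so 208 Z genes fell below that level, 39 of them with no count at all. RASEF (1.03 CPM) and HSD17B3 (1.13 CPM) lay just inside the limit, and PTGER4 (0.953 CPM) and AGXT2 (0.901 CPM) just outside. The table gives a symbol for 507 of the 608 genes, 60 more took one from RefSeq by gene ID, and 41 are known by ID only.

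All birds were Ross 308 broilers (spelled Ros 308 in the sample labels) whose hypothalamus was frozen at day 42. One group ate a basal diet at 24 °C. Another ate the same diet with 1% L-citrulline, an amino acid that the body turns into arginine, also at 24 °C. The other two groups ate the basal and the 1% L-citrulline diet but were kept at 35 °C from day 28, and humidity was 60% at both temperatures. Each of the 4 groups had 6 replicates of 12 chickens, and 1 chicken per replicate was sequenced, so p-values measure the spread between such birds.

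Birds are ZZ in males and ZW in females, and the W chromosome carries few genes. Unlike mammals with their inactive X, birds are not known to silence one Z or raise the other as a whole, and the Z genes of females are brought towards the male level gene by gene. A well-known exception to the male excess is the male hypermethylated region beside DMRT1, the testis-determining gene of birds, whose noncoding RNA is made in females.

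The labels give no sex, so it was read from the libraries. Over 30 W genes with at least 240 counts summed over the birds, mean log2(CPM + 1) was 4.50 to 4.71 in 12 birds, called females here, and 0.0805 to 0.178 in the other 12, called males. W genes therefore chose the classes and are not a result. Females numbered 2 of 6 birds in each basal group and 4 of 6 in each L-citrulline group. Libraries held 12635239 to 14525246 counts in females and 12776660 to 15001037 in males. Of the hypothalamic markers, AVP ranged from 629 to 6519 CPM and OXT from 105 to 906 CPM. The homeobox gene OTP, itself on the Z, ranged from 2.58 to 27.1 CPM. The choroid plexus gene TTR ranged from 4.23 to 2006 CPM between birds, and POMC was at most 3.61 CPM. The part of such differences in dissection in the results below was not tested.

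Z genes took a larger share of the RNA in males. They held 2.39% to 2.54% of all counts in females (median 2.47%) and 3.23% to 3.41% in males (median 3.34%), with no overlap. Per length, in FPKM, the median Z gene stood at 0.613 to 0.664 of the median autosomal gene in females, with a mean of 0.646 ± 0.0178 (SD, n = 12). In males it stood at 0.901 to 0.970 of it, with a mean of 0.936 ± 0.0179 (SD, n = 12). The classes did not overlap in any of the 4 groups. The highest female ratio, 0.664, was in the basal 24 °C group, and the lowest male ratio, 0.901, was in the basal 35 °C group. The same ratio for chromosome 4, an autosome with 938 genes at this level, was 0.993 to 1.07 in females and 0.996 to 1.03 in males.

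**Figure D1:**
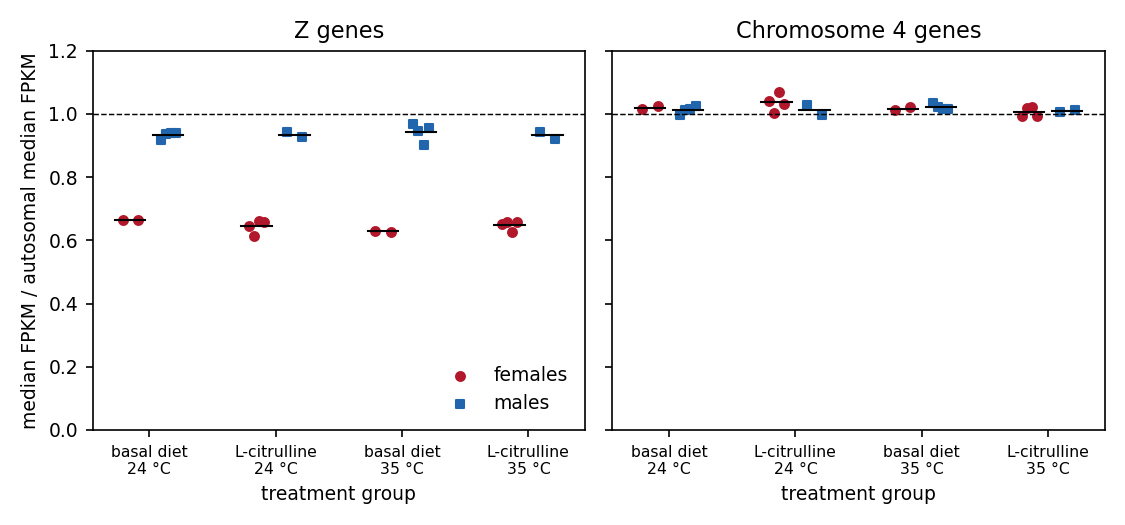
Median FPKM of Z genes (left) and chromosome 4 genes (right) divided by the median FPKM of autosomal genes, 1 point per bird by treatment group, with bars at the mean of each class. On the Z all 12 females sit between 0.613 and 0.664 and all 12 males between 0.901 and 0.970, while on chromosome 4 the classes overlap near 1.

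Males had more RNA than females for most Z genes, but for most of them less than 2-fold as much. In an edgeR quasi-likelihood fit over 13742 genes, with the treatment group as a term, the median Z gene was 0.50 higher in males on the log2 scale, a 1.41-fold ratio. The interquartile range was 1.2-fold to 1.71-fold, and the median standard error of a gene's ratio was 0.077 (n = 12 per class). The median over 12508 autosomal genes was -0.0091, and over all genes tested it was -0.0047. The ratios spread more widely on the Z (SD 0.347 over genes) than on autosomes (SD 0.156) although single genes were measured as precisely (median standard error on autosomes 0.079).

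At a Benjamini-Hochberg adjusted p of 0.05, 407 of the 608 genes were called, where 3.7% of all tested genes were. Of these 405 were higher in males (66.6% of the 608), where 3.1% of all tested genes were. The remaining 2, RLN3 and GLIS3, were higher in females, where 0.597% of all tested genes were (82 genes, 30 of them on the W). W genes chose the classes. The other 201 were not called, 167 of them on the male side of equality and 34 on the female side. Of 426 genes called higher in males on any chromosome, 409 were on the Z (96.0%). On autosomes 65 of 12508 genes were called (0.520%), 16 higher in males and 49 higher in females. That autosomal count was 35 and 38 without bird 6 or bird 5 of the L-citrulline 24 °C group and 98 without bird 6 of the basal 35 °C group. For 237 Z genes (39.0%) every male stood above every female, against 1.72% of all tested genes and 0 autosomal genes. Among Z genes below the level limit, 20 were tested, of which 4 were higher in males and 0 in females by the same test. In bulk tissue, more RNA per cell and more cells that make it cannot be told apart.

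**Figure D2:**
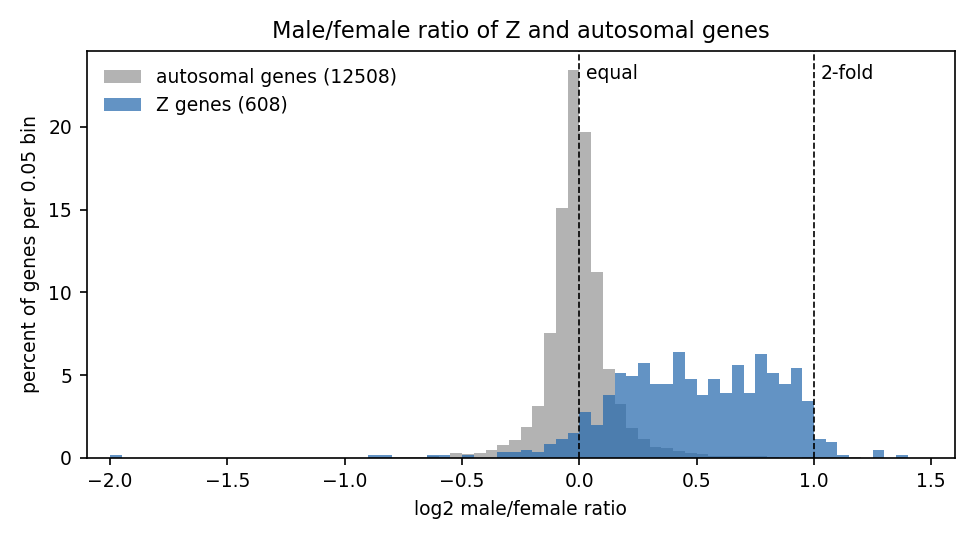
Log2 male/female ratio of 608 Z genes (blue) and 12508 autosomal genes (grey), as percent of genes per bin, with values beyond the axis drawn in the end bins and dashed lines at equality and at 2-fold. Autosomal genes pile up at equality, whereas Z genes spread from there to 2-fold around a median of 0.50.

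The same fit was also set against a male level of 2-fold the female one, which is the ratio of gene copies. By this test 477 Z genes were below 2-fold (78.5%), where 96.6% of all tested genes were. WDR36 and MRPS30 were above it, where 0.0218% of all tested genes were, and for 129 genes (21.2%) 2-fold was not rejected. Read together, the tests put 296 genes (48.7%) between equality and 2-fold, since both were rejected. For 179 genes (29.4%) equality was not rejected and 2-fold was. For 107 genes (17.6%) 2-fold was not rejected and equality was. For 22 genes (3.62%) neither was rejected. By these calls a ratio between both bounds was the most common case. The adjustment held the tests to unequal cut-offs, since 3.7% of all tested genes were called against equality and 96.6% as below 2-fold. Equality was therefore harder to reject. Some of the 179 genes had an interval of the log2 ratio wholly above equality, such as HTR1A (0.117 to 0.607) and PAIP1 (0.00809 to 0.133). The class sizes thus depend in part on these cut-offs.

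The 10 highest called ratios were estimated at 2.07-fold to 2.57-fold, and 2-fold was rejected only for WDR36 and MRPS30. They were picked as the largest estimates on the chromosome, which favours values that lie high. WDR36, a WD-repeat protein needed to make the small ribosomal subunit, had 15, 18.5 and 22 CPM in the lowest, median and highest female and 39.6, 44.3 and 49.4 CPM in males. Every male stood above every female, and the ratio was 2.41-fold (log2 1.27 ± 0.0602, SE, adjusted p = 4.82e-14 by edgeR; adjusted p against 2-fold 0.000167). MRPS30, a protein of the mitochondrial ribosome, had 16.5, 18.7 and 21.0 CPM in females and 34.4, 41.5 and 43.0 CPM in males. Its classes did not overlap either, and its ratio was 2.19-fold (log2 1.13 ± 0.0457). Its adjusted p against 2-fold was 0.0094 by edgeR, a value that the adjustment hardly raised. SMC2, a condensin subunit, had the highest called ratio, 2.57-fold, but at a mean of 5.37 CPM. Its 95% interval ran from 1.99-fold to 3.31-fold, and 2-fold was not rejected (adjusted p = 0.0525 by edgeR). MAT2L (2.41-fold), CRHBP (2.13-fold), ERAP1 (2.10-fold), TRMT10B (2.09-fold), ACOT12 (2.08-fold), COX7C (2.08-fold) and PIGG (2.07-fold) followed, and for none of them was 2-fold rejected.

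A group of 54 genes had a ratio whose 95% interval held 2-fold and stayed above 0.75 on the log2 scale. Among the 5 of highest CPM was RPS6, a protein of the small ribosomal subunit. It had 207, 224 and 258 CPM in the lowest, median and highest female and 389, 431 and 491 CPM in males. Every male exceeded every female, and the ratio was 1.95-fold (log2 0.96 ± 0.0443). ATP5A1Z, the alpha subunit of mitochondrial ATP synthase, was 1.89-fold higher in males (log2 0.92 ± 0.0488, adjusted p = 4.09e-13 by edgeR), RPS23, of the same ribosomal subunit, 2.00-fold, SPTLC1, of the first enzyme of sphingolipid synthesis, 1.93-fold, and C18orf32 1.92-fold. On the FPKM scale, RPS6 (364), ATP5A1Z (299), RPS23 (245) and CLTA, a clathrin light chain (233), were among the 5 most abundant Z genes, led by ENSGALG00000026300 (435), and all 5 had ratios of 1.89-fold to 2.00-fold.

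Other Z genes were at nearly the same level in both classes. The estimated log2 ratio lay within 0.15 of equality for 73 Z genes (12.0%), against 82.3% of autosomal genes. For 5 Z genes the whole 95% interval lay within 0.15 of equality, a rule that less precisely measured genes cannot meet. VLDLR, the very low density lipoprotein receptor, which also receives reelin in the brain, had 37.3, 47.0 and 54.5 CPM in females and 40.3, 47.1 and 51.1 CPM in males. Male values fell inside the female range, and the 95% interval of the ratio ran from 0.921-fold to 1.10-fold. CNTFR, the receptor subunit for ciliary neurotrophic factor, had 67.6, 75.8 and 93.5 CPM in females and 65.0, 82.1 and 102 CPM in males (interval 0.904-fold to 1.10-fold). SGTB, a co-chaperone abundant in neurons, had an interval of 0.969-fold to 1.09-fold, PAIP1, which binds the poly(A)-binding protein, 1.01-fold to 1.10-fold, and PLPPR1, a phospholipid phosphatase-related membrane protein, 0.906-fold to 1.11-fold. A ratio of 2-fold was rejected for all 5, which follows from the way they were picked.

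**Figure D3:**
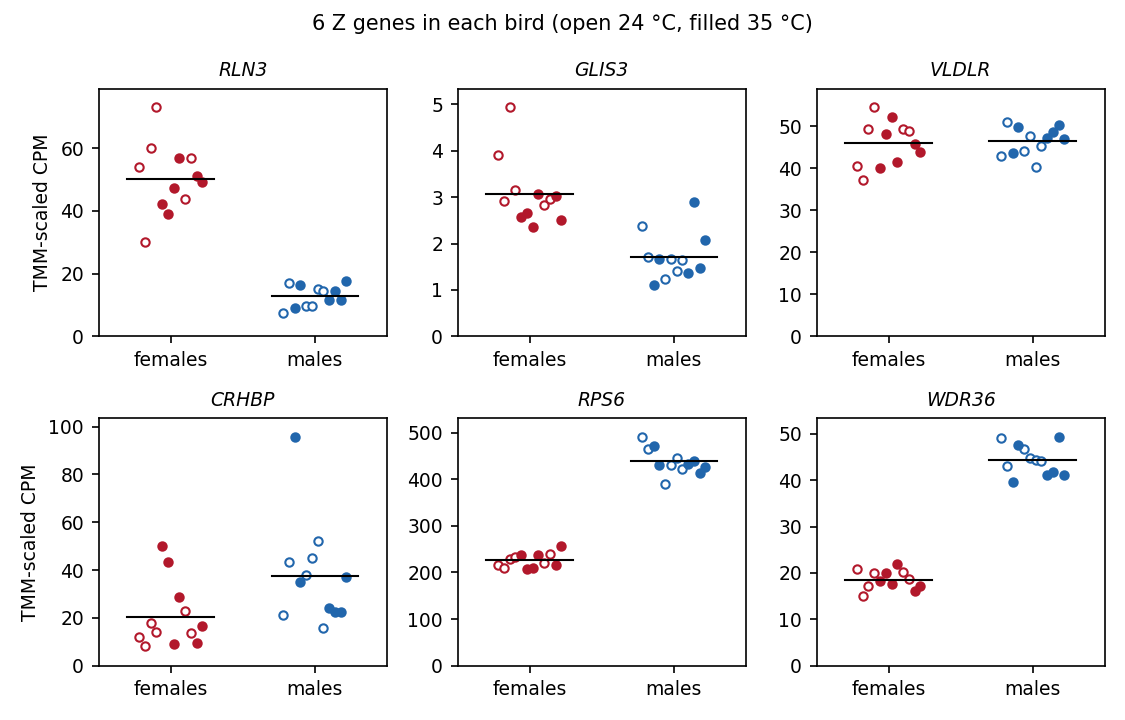
TMM-scaled CPM of 6 Z genes in each of 12 females (red) and 12 males (blue), open points for 24 °C and filled points for 35 °C birds, with bars at class means. RLN3 is higher in every female than in any male, RPS6 and WDR36 the other way round, VLDLR overlaps throughout, and GLIS3 and CRHBP overlap in part.

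The ratio was lowest beside DMRT1. In windows of 20 neighbouring genes the median log2 ratio was lowest, 0.041 (1.03-fold), from PGM5 to ERMP1, between 25.5 and 27.8 Mb on build GRCg6a. DMRT1 itself starts at 25.9 Mb (chrZ:25949442-26005324, plus strand). The highest window, 0.88 (1.84-fold), ran from CCNH to ENSGALG00000050110, between 61.2 and 64.3 Mb. In 5 Mb bins the median was 0.13 over the 30 genes from 25 to 30 Mb. In the 16 remaining bins it was 0.30 or more, and it reached 0.75 over the 17 genes from 80 to 85 Mb. The lowest and highest windows differed by 0.84, against 0.18 on chromosome 4, whose windows ran from -0.074 to 0.11. Ratios of single genes also spread more widely on the Z (SD 0.347, against 0.144 on chromosome 4), which by itself widens the range of window medians. How much of the difference in range goes with that spread was not tested. Between adjacent genes more than 5 Mb from DMRT1, Pearson's r of the ratios was -0.00069 over 527 pairs. This figure pools all such pairs and cannot show whether single stretches, such as the highest window, stand apart.

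**Figure D4:**
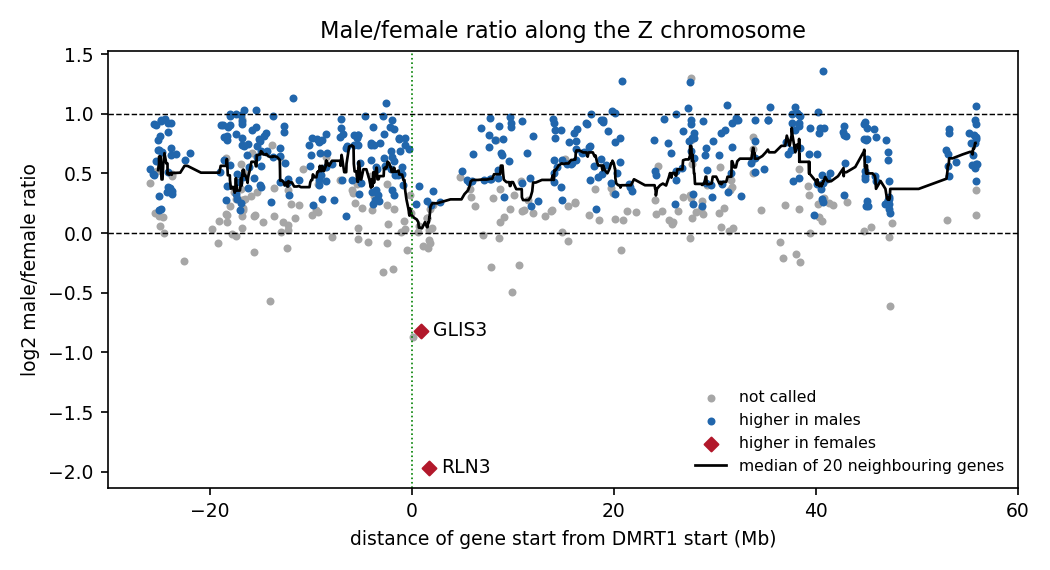
Log2 male/female ratio of the 608 Z genes by distance of the gene start from the DMRT1 start in Mb, grey where not called, blue where higher in males and red where higher in females, with the running median of 20 genes in black. The median dips to 0.041 just after DMRT1, where both genes called higher in females lie.

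The dip lay mainly after DMRT1, by a split made after seeing the data. Of 20 genes that start within 2.5 Mb after the DMRT1 start, 5 were higher in males, 2 were higher in females and 13 were not called, and their median log2 ratio was 0.050. Of 31 genes that start within 2.5 Mb before it, 20 were higher in males and 0 in females, with a median of 0.49. Of those nearest to it, MAP1B (0.034), PGM5 (-0.14), DOCK8 (0.32) and KANK1 (0.17) were not called, and CBWD1 (0.70) was higher in males. Beyond 2.5 Mb on either side, 380 of 557 genes were higher in males, with a median of 0.52. The median of the 20 genes after DMRT1 was -0.021 in 24 °C birds and 0.19 in 35 °C birds, and 0.018 to 0.082 when single birds were left out. DMRT1 was too low to be among the 608, with 84 counts summed over the 12 females (median 6.5 per bird) and 102 over the males (median 8).

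RLN3, at chrZ:27624861-27627531 on the minus strand, stood furthest from the rest of the chromosome. Its symbol is that of relaxin-3, a neuropeptide linked to arousal and feeding in rodents, and whether this chicken gene has that role was not tested. It had 30.2, 50 and 73.0 CPM in the lowest, median and highest female and 7.59, 13.1 and 17.7 CPM in males. Every female was above every male, which held for 1 of 608 Z genes and 3 autosomal genes (0.0240%). Over all tested genes, among them the W genes that chose the classes, the share was 0.247%. Females had 3.91-fold as much (log2 male/female -1.97 ± 0.153, n = 12 per class, adjusted p = 5.22e-10 by edgeR). The log2 ratio was -2.08 ± 0.240 in 24 °C birds, -1.85 ± 0.161 in 35 °C birds, -1.94 ± 0.137 on the basal diet and -2.0 ± 0.273 on L-citrulline. Its neighbours on either side did not share this. JAK2, the cytokine receptor kinase, had a log2 ratio of -0.13 ± 0.0786 and CD274, the immune checkpoint ligand PD-L1, -0.060 ± 0.0780, and neither was called.

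GLIS3, a zinc-finger transcription factor at chrZ:26853966-26967115, was low in this tissue. It had 2.36, 2.94 and 4.93 CPM in females and 1.10, 1.65 and 2.90 CPM in males, so the highest males overlapped the lower females. Females had 1.76-fold as much (log2 male/female -0.82 ± 0.147, adjusted p = 0.000473 by edgeR). In 35 °C birds alone it was -0.71 ± 0.241 and not called (adjusted p = 0.324 by edgeR), and on the basal diet alone it was not called either (adjusted p = 0.200). DMRT2, the next of the 608 genes after DMRT1, had 0.442, 3.11 and 5.69 CPM in females and 0.647, 1.39 and 3.93 CPM in males. The classes overlapped widely and it was not called (log2 -0.87 ± 0.360, adjusted p = 0.319 by edgeR). The others of the 10 lowest near DMRT1, all uncalled, were GCNT4 (-0.30), PGM5 (-0.14), JAK2, the glutamate transporter gene SLC1A1 (-0.10), ERMP1 (-0.080), CD274 and TMEM171 (0.0082). Among the 20 genes after DMRT1 the highest log2 ratio was 0.40. SMARCA2, the BRM ATPase of chromatin remodelling complexes, had 153 to 192 CPM in females and 198 to 233 CPM in males, which did not overlap, at 1.19-fold (log2 0.24 ± 0.0404, adjusted p = 0.000149 by edgeR).

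The ratios of single genes recurred in separate birds. Fitted in 24 °C birds and in 35 °C birds, which share none, the log2 ratios of 607 Z genes had Pearson's r = 0.77 and Spearman's rho = 0.81 across genes, which are not independent replicates. The same figures over 937 genes of chromosome 4 were 0.084 and 0.14. Z ratios spread more widely over genes (SD 0.347, against 0.144), which by itself raises r. The median absolute difference between 24 °C and 35 °C birds was alike, 0.091 on the Z and 0.095 on chromosome 4. For basal against L-citrulline birds r was 0.77 on the Z and 0.16 on chromosome 4. The median Z ratio was 0.50 at 24 °C and 0.51 at 35 °C. At 24 °C 311 Z genes were higher in males (2.42% of all tested genes were) and at 35 °C 292 were (2.18%), with 261 in both. On the basal diet 317 were (2.38%) and on L-citrulline 296 (2.28%). Z genes higher in females numbered 2 at 24 °C (0.379% of all tested genes were) and 1 at 35 °C (0.306%), so that 313 (2.8%) and 293 (2.49%) were called in all.

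**Figure D5:**
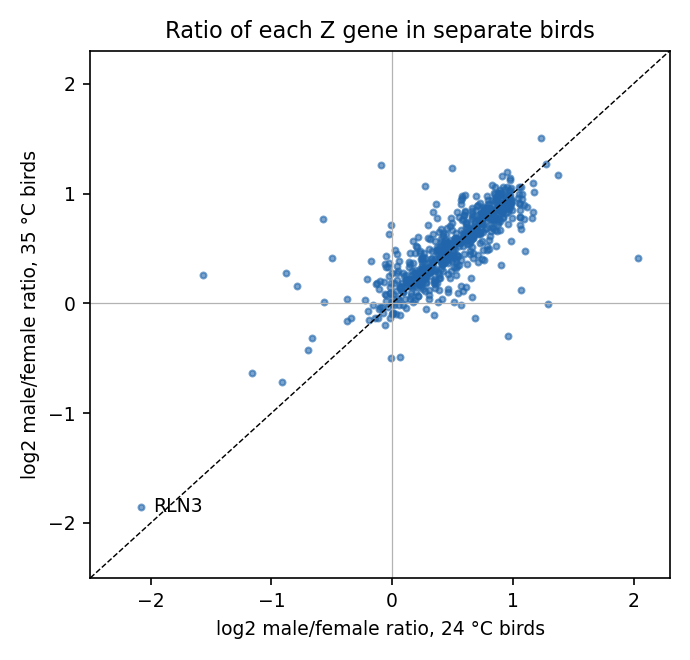
Log2 male/female ratio of each Z gene in 24 °C birds (horizontal) and 35 °C birds (vertical), with the dashed line where both are equal. Points follow the line (r = 0.77 over 607 genes), with RLN3 alone at the lower left.

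The ratio followed the span of a gene in the genome more than its level. Over the 203 Z genes of the shortest span, up to 14.7 kb, the median log2 ratio was 0.62. Over the middle 202 it was 0.53, and over the 203 longest, 46.5 to 428 kb, it was 0.37 (Spearman's rho -0.25 over 608 genes, as a description). The same parts of the autosomal genes had medians of -0.0018, -0.0099 and -0.015. By mean FPKM the Z medians were 0.50, 0.49 and 0.50 from the lowest to the highest part (rho 0.023). Exon length, which sets how many reads a gene collects, had a rho of -0.16.

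Z genes with a W copy were all higher in males. These pairs are remnants of the chromosome from which both Z and W descend, and many act in transcription, translation and signalling. Of 33 listed symbols of such genes 21 were among the 608, and all 21 were higher in males (median log2 0.80, range 0.40 for TNPO1, a nuclear import receptor, to 0.96 for SMAD2Z). W entries could be matched by description for 21 Z genes, a set that overlaps this list. Their Z copies had a median log2 ratio of 0.83 (1.78-fold), against 0.48 (1.40-fold) over the 584 genes outside list and pairs. All 21 were called higher in males, where 66.6% of all 608 genes were.

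When the FPKM of the Z and W copy were added in females and set against the Z copy in males, the median ratio of the 21 pairs was 1.06-fold, and it ran from 0.784-fold for SMAD2Z to 1.49-fold for ATP5A1Z. It lay above equality in 11 pairs and below in 10. For RASA1 and TXNL1 the sum took in 2 W entries each, and both lay below equality (0.834-fold and 0.865-fold). FPKM divides each entry by its own length, and the effect of unequal lengths of Z and W entries on the sums was not tested. W copies made up 21.7% to 59.4% of the female sum, and at most 0.215% in males, where only misassigned reads could be counted. W genes chose the classes, so this sum is a description. SMAD2Z, a transducer of TGF-beta signals, had 10.9 ± 0.691 FPKM from the Z and 16 ± 0.990 from the W in females, and 21.1 ± 0.836 from the Z in males (SD, n = 12). The female sums of 24.5 to 29.1 FPKM were above all male values of 19.5 to 22.4, which occurred in no other pair. In 4 pairs, ATP5A1Z, RPL17, SPIN1Z and HNRNPK, every male was above every female sum. ATP5A1Z had 206 ± 13.9 FPKM from the Z and 57.1 ± 11.8 from the W in females and 393 ± 30.6 in males, or 1.49-fold the female sum. How many W reads were counted on a Z copy in females was not tested.

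Among genes of hormone and neuropeptide signalling, 17 of 19 listed were in the set, and 6 were higher in males, 0 in females and 11 were not called. Their median log2 ratio was 0.28, against 0.50 over the Z, where 66.6% of genes were higher in males (3.1% of all tested genes). CRHBP, which binds and sequesters corticotropin-releasing hormone, had 8.27, 15.3 and 49.9 CPM in females and 15.8, 36.1 and 95.8 CPM in males. The ranges overlapped widely, and males had 2.13-fold as much (log2 1.09 ± 0.253, adjusted p = 0.00837 by edgeR). This call was lost in the birds of either temperature taken alone, with adjusted p of 0.0542 at 24 °C and 0.469 at 35 °C by edgeR. On either diet alone it was lost as well, with adjusted p of 0.103 on the basal diet and 0.213 on L-citrulline by edgeR. Without bird 4 of the L-citrulline 35 °C group the log2 ratio was 0.97, with adjusted p = 0.0519 by edgeR. GHR, the growth hormone receptor, was 1.5-fold higher in males (adjusted p = 0.000329 by edgeR), OSMR, the oncostatin M receptor, 1.98-fold, and NTRK2, the BDNF receptor, 1.46-fold. PRLR, the prolactin receptor (0.34 ± 0.170), PAM, which amidates neuropeptides (0.16 ± 0.0730), the prohormone convertase PCSK1 (0.019 ± 0.160) and CARTPT, the CART peptide precursor (-0.61 ± 0.494), were not called.

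Of 17 synaptic and channel genes in the set, 3 were higher in males, 0 in females and 14 were not called, against the 66.6% of all 608 Z genes that were higher in males. Their median log2 ratio was 0.12. All 17 were called below 2-fold, where 78.5% of the 608 Z genes and 96.6% of all tested genes were. MAP1B, a microtubule protein of neurons, had 550, 589 and 747 CPM in females and 540, 668 and 740 CPM in males. The classes overlapped fully, and the 95% interval of the ratio was 0.938-fold to 1.12-fold. SYT4, a synaptotagmin, had a log2 ratio of -0.24 ± 0.106 and was not called. NREP, a neuronal regeneration protein, was 1.51-fold higher in males, RIT2, a neuronal Ras-like GTPase, 1.53-fold and PTPRD, a synaptic adhesion phosphatase, 1.2-fold.

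Of 13 genes on the transcription factor list 7 were higher in males, 0 in females and 6 were not called (median log2 0.30). That list is a broad one and also holds SMAD7 and chromatin regulators such as SMARCA2. For this and the following lists too, the share higher in males over all 608 Z genes was 66.6% and the median 0.50. NR2F1, a nuclear receptor of forebrain patterning, was 1.24-fold higher and SMAD7, an inhibitor of TGF-beta signalling, had the largest ratio at a log2 of 0.68. OTP, which specifies neuroendocrine cells of the hypothalamus, had a log2 ratio of -0.33 ± 0.285 and was not called. Of 11 chaperone and protein turnover genes 7 were higher in males and 4 were not called (median 0.39). ERAP1, an aminopeptidase, had the highest ratio of this list, and VCP, the p97 segregase, was 1.78-fold and the HSP40 co-chaperone DNAJA1 1.37-fold higher. The peptidase LNPEP had the lowest log2 ratio, 0.073 ± 0.0465, and was not called. Of 17 genes on the metabolism list 11 were higher in males and 6 were not called (median 0.32). HMGCS1, a cytosolic HMG-CoA synthase, had a log2 ratio of 0.026 ± 0.0993 and was not called. OXCT1, which uses ketone bodies, was at 0.096 ± 0.0395 and ALDH1A1, a retinoic acid synthesising enzyme, at -0.49 ± 0.640, both uncalled. Lists can share genes, since ALDH1A1 is also counted on the hormone list and VCP on the list of W partners.

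Heat and L-citrulline did not move Z genes by a margin the test could call. With bird class in the fit, 0 of 608 Z genes and 0 of 13742 genes (0%) passed the adjusted edgeR test for heat, for L-citrulline, on either background or for their interaction, and DESeq2 called 0 of the 608 as well. At an unadjusted p under 0.05, heat averaged over diets took 21 Z genes (3.45%, against 3.22% of all tested genes) and L-citrulline averaged over temperatures 33 (5.43%, against 7.24%). The median Z log2 change was -0.012 for heat and 0.0018 for L-citrulline. The male/female ratio of 0 Z genes differed by heat or by diet in the edgeR interaction test. At an unadjusted p under 0.05 that test took 20 Z genes for heat (3.29%, against 2.89% of all tested genes). For diet it took 37 (6.09%, against 5.42%). The lowest unadjusted p for L-citrulline at 35 °C was that of CRHBP, at a log2 change of 1.35 ± 0.350 (adjusted p = 0.645 by edgeR). In females it had 9.49 and 16.6 CPM on the basal diet at 35 °C and 9.0 to 49.9 CPM on L-citrulline. For heat averaged over diets the lowest p was that of PGM5 (-0.23 ± 0.0747, adjusted p = 1.00 by edgeR).

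Bird class moved with the diet comparison. Females made up 2 of 6 basal and 4 of 6 L-citrulline birds at both temperatures. In a fit without bird class, the median Z gene was 0.17 lower on the log2 scale with L-citrulline at 24 °C (-0.17, against 0.0067 over all genes) and likewise at 35 °C (-0.17, against 0.0058). With bird class in the fit these medians were 0.0038 and 0.0019. The median standard error of a Z gene fell from 0.205 without the class to 0.105 with it. In the authors' deposited tables of 6 pairwise comparisons, 27 to 57 of 16229 genes were called (0.166% to 0.351%). Of these, 0 to 4 were on the Z, and at most 1 per comparison was among the Z genes followed here.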

How the data were processed

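RNA from the hypothalamus of 24 broilers was sequenced, 1 library per bird. The deposited expression table holds the authors' read counts and FPKM per gene, per the file headers. HISAT2, TopHat, HTSeq and DESeq with build GRCg6a are named in the submitters' processing notes, without versions. Recomputed from the counts, the deposited FPKM values equal count divided by gene length and library total. The authors' deposited tables also give p-values for 6 pairwise comparisons, which were only counted.

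The 608 Z genes, the gene lists and the DMRT1 window were chosen with earlier results of these data known. The 6 lists are Z genes with W partners, hormone and neuropeptide signalling, synapse and channels, transcription factors, chaperones and protein turnover, and metabolism. Named genes are the 10 called genes of largest ratio and all called lower in males, 5 each nearest equality and around 2-fold, the 10 lowest near DMRT1, examples from the lists, the 5 of highest FPKM and those of smallest p for heat and diet.

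Counts were scaled by TMM (factors 0.967 to 1.03), filtered by filterByExpr (13742 genes kept, all 608 among them) and fitted in R 4.3.3 with edgeR 4.0.16 as treatment group plus bird class (19 residual degrees of freedom, biological coefficient of variation 0.162). Quasi-likelihood F tests were adjusted by Benjamini-Hochberg at 0.05. An offset of 2-fold gave the test against 2-fold the female level. CPM values in the text are scaled by TMM, except those that set the level limit and the tissue markers. Errors after ± are standard errors of log2 ratios unless named SD. Intervals are at 95%. The fits were checked on simulated data drawn with less spread between birds than was found here. Alternatives were another normalization, DESeq2 1.42.0, other filters, windows and subsets of birds, a replicate block, and leaving out each bird in turn. Birds of equal replicate number in different groups were hardly more alike than others (median r of fit residuals 0.0059, against -0.0063). The block is therefore given with the alternatives, and a pairing was not tested beyond this. RefSeq names come from an assembly other than that of the files, and no coordinate was taken from it. No sequence was used here. 1 gene of the metabolism list is counted with it but not reported here by name.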

Additional observations from a re-analysis of the deposited data

Results flagged for a closer look

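Among the named genes and the Z to autosome ratio, 92 groups of 4 birds of one class and treatment were searched for a bird far from the other 3. Chance flags about 1 in 20 such groups, and 5 were found here. WDR36 was at 49.4 CPM in male 4 of the basal 35 °C group, where the others had 41.1 to 41.7. CRHBP was at 37.2 CPM in male 5 of the same group, against 22.3 to 23.9 in the others. ACOT12, an acetyl-CoA thioesterase, was at 3.39 CPM in female 1 of the L-citrulline 35 °C group, against 2.36 to 2.5. COX7C, a cytochrome c oxidase subunit, was at 34.6 CPM in female 2 of that group, against 46.2 to 48.1. PAIP1 was at 100.2 CPM in female 1 of the L-citrulline 24 °C group, against 104.8 to 105.5.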

How the results depend on the processing

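Of 482 recomputed summary values 465 stayed within their limits and none reversed. The number of Z genes called between males and females was 376 to 424 over other normalizations, tests, filters and terms, 385 to 407 without single birds, and 293 to 318 in birds of 1 temperature or diet alone. Against 2-fold it was 468 to 484 without single birds. The median Z ratio was 0.48 to 0.51 in all of these. The autosomal count moved most: 35 in 24 °C birds, 12 in 35 °C birds, 20 on the basal diet, 113 by DESeq2, and 35 to 98 without single birds. The median near DMRT1 was 0.24 to 0.28 without single birds 0.21 within 1 Mb and 0.33 within 5 Mb. Over the 20 genes after DMRT1, in alternatives added after seeing the data, it was -0.021 in 24 °C and 0.19 in 35 °C birds and 0.018 to 0.082 without single birds. The lowest window median along the Z was -0.018 for 10 genes and 0.20 for 40 genes, and 0.13 and 0.36 in 5 and 10 Mb bins, the wider ones taking in genes outside the dip. The median female Z level was 0.630 relative to chromosome 4, against 0.654 relative to all autosomes. Between separate birds r was 0.85 (temperature) and 0.84 (diet) for genes of at least 5 CPM. Of 3979 values of named genes 87 lost their call, chiefly CAPSL, LMAN1 and PALM2AKAP2, whose adjusted p lay near the threshold, and none reversed. With the replicate block 376 Z genes were called, and 6 of 24 birds correlated best with a bird of their own number (median r of same-number pairs 0.0059). The test against 2-fold was not run in DESeq2. Depth limits what can be said of Z genes under 1 CPM, of which 20 of 208 were tested.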

Other observations

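Z genes of 3 families of translation and respiration, picked by symbol after their values were seen, were all called higher in males, as were 66.6% of the 608 Z genes. The 4 cytosolic ribosomal protein genes RPL17, RPL37, RPS6 and RPS23 were all higher in males, with log2 ratios of 0.43 to 1.00 (median 0.95). The 5 genes with symbols of the mitochondrial ribosomal protein series, MRPL17, MRPS30, MRPS36, MRPS27 and MRPL50, were all higher in males at 0.74 to 1.13 (median 0.88). The symbol alone placed them there. The 4 respiratory chain and ATP synthase genes ATP5A1Z, NDUFS4, ATP5ME and COX7C were all higher in males at 0.80 to 1.05 (median 0.92). These ratios are of the Z copy alone, and RPL17 and ATP5A1Z have a W copy as well. Against the female sum of both copies, male FPKM was 1.37-fold for RPL17 and 1.49-fold for ATP5A1Z. Off the Z and W, none of 66 cytosolic ribosomal, 64 mitochondrial ribosomal and 79 respiratory genes was called. Only 0.520% of all autosomal genes were called, so few calls are to be looked for in sets of this size. The median log2 ratios of the 3 sets were 0.060, -0.0097 and -0.0012. RPL37, at 0.43, was the lowest of these Z genes.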
